A study of Mus musculus with 8 samples.

Results

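*Mafa* and *Maf* are the 2 genes described here, chosen by name from the 32390 rows of the gene count table of aged mouse gastrocnemius muscle. They encode large MAF proteins, basic leucine zipper transcription factors that carry an activation domain. Each symbol stood on 1 row, and both rows passed the filter on low counts. They were proposed with the difference between the genotypes already known, so that this difference is described for them and not tested. *Myh4*, the gene of the type IIb myosin heavy chain, was read beside them in the same libraries.

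The samples were bulk RNA-seq libraries of gastrocnemius from 4 control and 4 NOX4-deficient male mice, which the labels place at 21 months of age and in 1 batch; sex, diet and background are taken from the study's text. Control mice were *Nox4* fl/fl and carried no Cre. NOX4-deficient mice were MckCre:*Nox4* fl/fl, with Cre under the promoter of muscle creatine kinase, which is active mainly in skeletal muscle and less so in heart. All mice were on standard chow and a C57BL/6 background. The floxed alleles were therefore common to both groups, and the loss of *Nox4* and the presence of Cre cannot be told apart. Cells other than muscle fibers keep the undeleted gene.

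Large MAF proteins bind MAF recognition elements (MAREs), either as homodimers or with other basic leucine zipper proteins, and activate transcription. MAFA is best known for insulin gene expression in beta cells, and c-MAF (the product of *Maf*) for lens crystallins and T cell cytokines. In skeletal muscle of the mouse large MAF factors are known to drive the type IIb program, and *Myh4* is among their targets. Small MAF proteins bind the same elements but lack the activation domain, and act as partners of NFE2L2 and BACH factors.

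The libraries held between 16350548 and 19804661 counts on genes. Levels are given as CPM, read counts divided by library size after scaling with edgeR's TMM factors, with SDs over 4 mice. *Nox4* itself had 35 to 85 counts in control and 29 to 43 counts in NOX4-deficient libraries, and its difference was not past the threshold (log2 fold change -0.65, adjusted p = 0.207 by edgeR's quasi-likelihood test). The markers of muscle fibers, such as *Acta1*, *Ckm* and *Ttn*, summed to 77564 to 96091 CPM over the 8 libraries, and the groups overlapped. In bulk muscle, fewer cells of a type and less RNA per cell cannot be told apart.

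One stretch of reference sequence is shown because *Myh4* is the gene beside which the MAF levels are read. It holds the 250 bases before the RefSeq start of mouse *Myh4* (GRCm38.p6, chr11:67237562-67237811, plus strand), and capitals mark matches to the E-box CANNTG, bound by MYOD1 and MYOG, to the CArG box, bound by serum response factor, and to the TATA sequence TATAAA, each on either strand.
*Myh4* promoter: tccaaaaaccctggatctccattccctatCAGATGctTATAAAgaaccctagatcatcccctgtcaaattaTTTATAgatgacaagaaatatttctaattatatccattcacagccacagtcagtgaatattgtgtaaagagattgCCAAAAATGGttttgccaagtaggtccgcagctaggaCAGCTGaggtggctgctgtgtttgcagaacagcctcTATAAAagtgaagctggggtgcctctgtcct
The TATA match nearest to the start lies at bases -31 to -26 and the CArG box at bases -104 to -95. An E-box occurs in 72.3%, a CArG box in 1.63% and the TATA sequence in 13.6% of the 32851 RefSeq windows of 300 bases. The palindromic MAREs, in which TGCTGA and its reverse complement TCAGCA stand 1 or 2 bases apart, are each in 0.00609% of windows and not in that of *Myh4*. The core of the form with 1 base between the arms overlaps the AP-1 element. The single arm TGCTGA, part of both palindromes, is in 19.5% of all windows but not in that of *Myh4*. Counted by gene rather than by window, it is in 5 of 15 IIb program genes that have a window. Among slow and oxidative program genes it is in 2 of 12. A match of letters is a description and no evidence of binding. *Mafa* and *Maf* have no entry among these windows.

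The reads on *Mafa* numbered 570, 564, 637 and 510 in control replicates 1 to 4, and 1604, 1891, 2253 and 1328 in the same order of NOX4-deficient replicates. On the scale of TMM-scaled levels these were 34.1, 29.0, 34.1 and 26.5 CPM in control muscle and 96.4, 95.5, 118 and 77.8 CPM in NOX4-deficient muscle. Every NOX4-deficient library lay above every control library, and the lowest NOX4-deficient value was far above the highest control value. The means were 30.9 ± 3.81 CPM (SD, n = 4) and 97.0 ± 16.6 CPM (SD, n = 4), a ratio of 3.14. The fitted difference was 1.65 ± 0.14 (SE) in log2 units. It stayed between 1.55 and 1.76 over the 16 alternative settings and libraries left out. In GENCODE M21 *Mafa* has a single exon and no gene lies on the opposite strand, which matters because the libraries were unstranded.

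*Maf* had more CPM than *Mafa* in all 8 libraries. Its level was 267, 334, 295 and 256 CPM in control replicates 1 to 4 and 299.8, 365, 335 and 269.9 CPM in NOX4-deficient replicates 1 to 4. The groups overlapped over most of their range, with means of 288 ± 34.8 CPM (SD, n = 4) and 317 ± 41.3 CPM (SD, n = 4). Its log2 fold change was 0.14 (standard error 0.12, 95% interval from the fit -0.13 to 0.40), and it stayed between 0.06 and 0.22 over the same alternatives. In GENCODE M21 the antisense gene *Gm15655* overlaps *Maf*, and its row in the table had no count in any library. The groups did not overlap for 1 of the 2 genes, *Mafa*, which was proposed for this difference. Over all 12725 rows tested this was so for 16.2%, of which 7.2% of rows were higher and 8.97% lower in NOX4-deficient muscle.

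**Figure D1:**
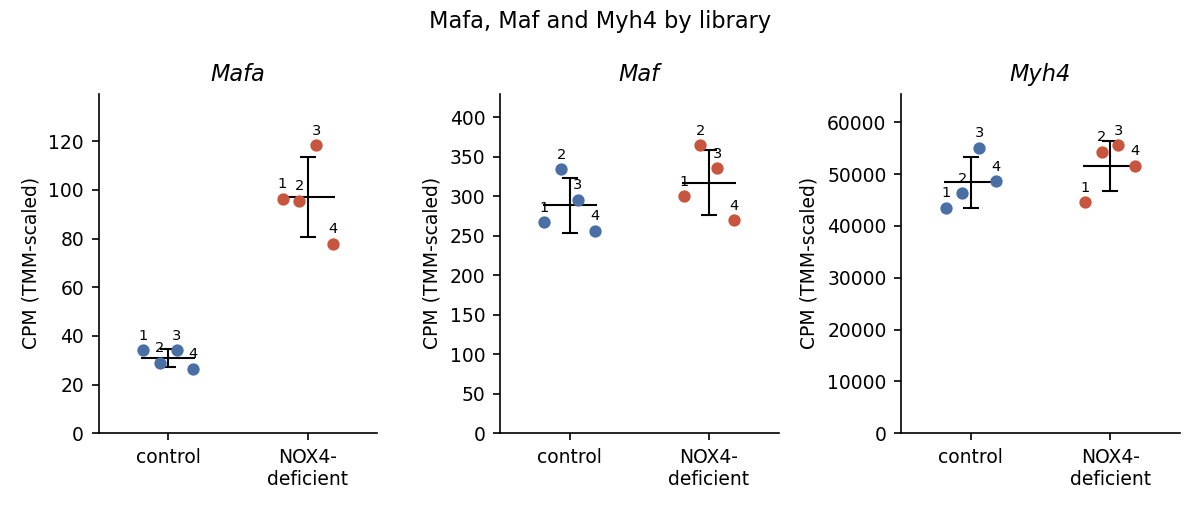
Levels of *Mafa*, *Maf* and *Myh4* in TMM-scaled CPM (vertical axes, each from 0) in the 4 control and 4 NOX4-deficient libraries. Points are libraries numbered by replicate, and black bars give the mean and SD of 4. *Mafa* is separated between the groups (26.5 to 34.1 against 77.8 to 118 CPM), whereas the groups overlap for *Maf* and *Myh4*.

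*Nrl*, a large MAF gene of rod photoreceptors, had no count in any library. Because *Maf* is also expressed by macrophages, the 13 macrophage markers were read beside it. Their summed level was 88.3, 53.1, 40.3 and 31.4 CPM in control replicates 1 to 4 and 33.5, 33.8, 45.3 and 17.7 CPM in NOX4-deficient replicates 1 to 4, and the groups overlapped. Control replicate 1 had the most macrophage signal, whereas *Maf* was highest in NOX4-deficient replicate 2. *Maf* alone had more CPM than the summed markers in every library, which does not show from which cells its reads came. Over all rows tested, 3.48% were called lower. Of the 13 markers, 10 were tested and all 10 had negative log2 fold changes, with a median of -0.66. One, the scavenger receptor gene *Cd163*, was called lower (log2 fold change -1.29, adjusted p = 0.0238 by edgeR's quasi-likelihood test), a call that was lost in 3 of 16 alternatives, without control replicate 2 or NOX4-deficient replicate 1 or 4 (-1.24, -1.12 and -1.16). Of 6 T cell markers 1 was tested and none was called, and *Cd4* and *Cd8a* had at most 3 counts in any library. No marker of endothelium, fibroblasts, satellite cells or adipocytes was called, and the summed levels of each list overlapped between the groups. The part of other cell types in the MAF levels was not tested.

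Read per length of the longest annotated coding transcript, *Maf* and *Mafa* lay closer together in NOX4-deficient than in control muscle. In control muscle *Maf* stood at 45.4 ± 5.48 CPM per kb (SD, n = 4) and *Mafa* at 11.3 ± 1.39 CPM per kb. In NOX4-deficient muscle *Maf* stood at 49.9 ± 6.49 CPM per kb (SD, n = 4) and *Mafa* at 35.4 ± 6.06 CPM per kb. *Maf* remained above *Mafa* in each library of both groups.

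*Maf* exceeded *Mafa* by this measure 3.37-, 4.97-, 3.74- and 4.17-fold in control replicates 1 to 4 and 1.34-, 1.64-, 1.22- and 1.49-fold in NOX4-deficient replicates 1 to 4. *Mafa* thus made up 20.02 ± 2.61% of the sum of both genes per length in control and 41.4 ± 3.13% in NOX4-deficient mice (SD, n = 4 per genotype). With the shorter of the 2 annotated *Maf* transcripts in the calculation these shares were 11.3% and 26.4%. The sum of both genes was 50.0 to 63.2 CPM per kb in control and 70.8 to 95.9 CPM per kb in NOX4-deficient libraries, and the groups did not overlap. With the shorter *Maf* transcript the groups overlapped, at 89.2 to 114 and 112 to 148 CPM per kb. These shares and sums contain *Mafa*, which was proposed for its difference, and are descriptions.

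**Figure D2:**
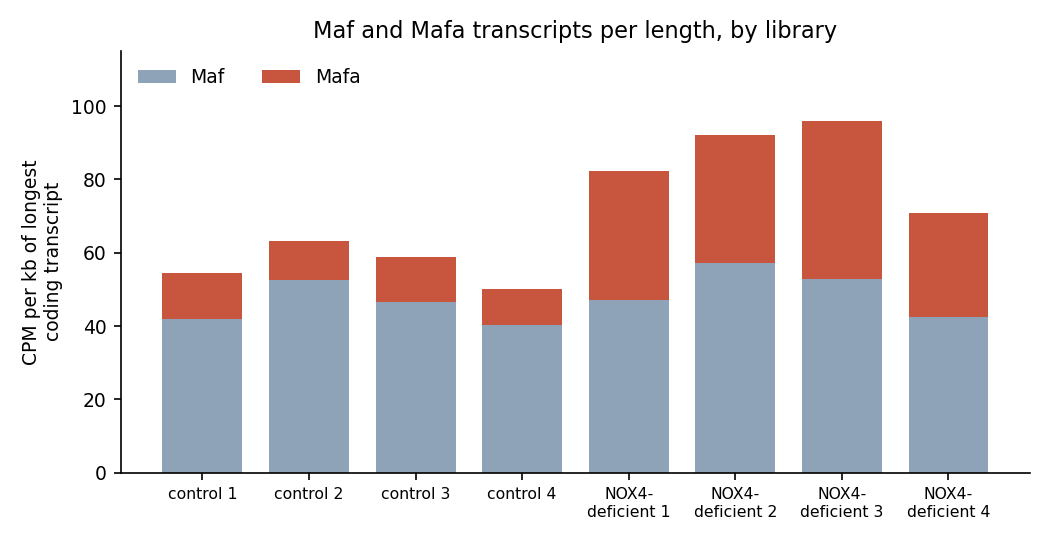
Levels of *Maf* and *Mafa* in CPM per kb of the longest coding transcript (vertical axis), stacked for each of the 8 libraries. The *Maf* part is of similar height in all libraries (40.3 to 57.3 CPM per kb), and the *Mafa* part rises from 9.67-12.5 CPM per kb in control to 28.4-43.2 CPM per kb in NOX4-deficient libraries.

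All 3 small MAF genes fell in NOX4-deficient muscle, opposite to *Mafa*. Of all rows tested, 6.16% were called, 3.48% lower and 2.68% higher, where a call is an adjusted p-value under 0.05 by edgeR's quasi-likelihood test and an absolute log2 fold change over 0.5. *Maff* averaged 5.97 ± 0.620 CPM (SD) in control mice against 2.44 ± 0.448 CPM in NOX4-deficient mice, a change of -1.29 ± 0.18 (SE) in log2 units with an adjusted p of 0.00185 in edgeR. *Mafg*, the most abundant of them, averaged 126 ± 15.4 CPM and 81.7 ± 10.6 CPM (SD), a change of -0.62 ± 0.12 (SE) with an adjusted p of 0.0104 in edgeR. *Mafk*, which in GENCODE M21 overlaps *Tmem184a* on the other strand, changed by -0.78 ± 0.12 (SE), with an adjusted p of 0.00346 in edgeR. In none of the 3 genes did the groups overlap, and the calls held in all 16 alternatives.

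Among 13 genes of other basic leucine zipper factors that bind MAREs or related elements, 10 were tested, 3 were called lower and none higher. Of all rows tested 3.48% were called lower and 2.68% higher. The median log2 fold change was -0.38 against 0.01 over all rows tested. The 3 genes called lower were *Bach1* (-1.16, edgeR adjusted p = 0.00211) and *Bach2* (-1.24, edgeR adjusted p = 0.0142), which encode repressors that pair with small MAF proteins, and *Nfe2l2* (-0.65, edgeR adjusted p = 0.0112), the activator among those partners. *Nfe2l1*, a second activator, stood at 749 to 939 CPM over the 8 libraries (-0.05 in log2 units, 95% interval from the fit -0.28 to 0.17). The AP-1 genes were not called, and *Fos* varied from 1.47 to 25.0 CPM within NOX4-deficient muscle.

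**Figure D3:**
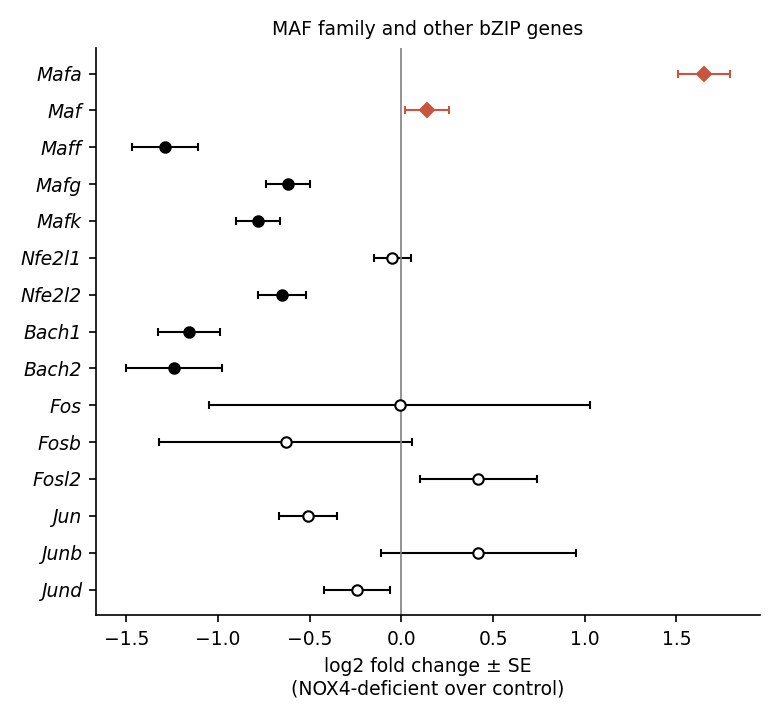
Log2 fold changes (NOX4-deficient over control, horizontal axis) with standard errors for the MAF genes and other basic leucine zipper genes that passed the filter on low counts. Red diamonds are *Mafa* and *Maf*, which were not tested, filled circles are genes that were called and open circles genes that were not; *Mafa* stands at 1.65 and the 3 small MAF genes between -1.29 and -0.62.

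*Myh4*, the marker of the IIb program, had 43485, 46335, 55132 and 48608 CPM in control replicates 1 to 4. In NOX4-deficient replicates 1 to 4 it had 44623, 54337, 55557 and 51655 CPM. The lowest values of the groups were near each other, as were the highest. Its log2 fold change was 0.09 (standard error 0.12, 95% interval from the fit -0.18 to 0.36), with an adjusted p of 0.71 by edgeR's quasi-likelihood test. The adjusted p ran from 0.486 to 0.902 over the alternatives. On the log2 scale *Mafa* mRNA thus stood 1.65 higher in NOX4-deficient muscle and *Myh4* 0.09 higher, with an upper bound of 0.36 for *Myh4*.

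As a share of the counts on the 4 adult myosin heavy chain genes, *Myh4* held 94.5%, 92.4%, 94.6% and 95.2% in control replicates 1 to 4. It held 94.5%, 96.7%, 97.2% and 92.2% in NOX4-deficient replicates 1 to 4. The difference of 0.965 percentage points was within the spread between mice (exact two-sided permutation test, p = 0.6, where 4 mice against 4 allow no p below 0.0286). With a library left out it ran from 0.28 to 1.94 points. The control shares, 92.4% to 95.2%, leave this measure little room to rise. *Myh4* was by far the most abundant chain in every library of both genotypes.

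The remaining adult chains varied widely between mice of 1 genotype, and the groups overlapped for each. In log2 units the change was -0.39 ± 0.28 (SE) for *Myh1*, the IIx chain, 0.14 ± 0.34 for *Myh2*, the IIa chain, and 1.14 ± 0.72 for *Myh7*, the slow chain. None was called (adjusted p from 0.401 to 0.854 in edgeR). Without NOX4-deficient replicate 4 *Myh1* stood at -0.71 (adjusted p = 0.0649 in edgeR), *Myh2* at -0.23 and *Myh7* at 0.47, and without control replicate 2 *Myh7* stood at 1.68. *Myh1* was nearer to 0 without NOX4-deficient replicate 2 or 3 (-0.25 and -0.21). The libraries did not follow 1 order of *Mafa* and these chains in both groups. NOX4-deficient replicate 4 had the least *Mafa* of its group (77.8 CPM) and the most *Myh1* (2630 CPM), whereas control replicate 4 had the least *Mafa* (26.5 CPM) and also the least *Myh1* (1755 CPM) of the controls. With 4 mice per genotype no correlation was computed.

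The embryonic chain *Myh3* rose between groups that did not overlap, with means of 1.96 ± 0.445 CPM and 4.77 ± 1.12 CPM (SD) and a change of 1.28 ± 0.24 (SE) in log2 units (adjusted p = 0.00807 in edgeR). It had 31 to 43 counts in control and 61 to 105 counts in NOX4-deficient libraries. The neonatal chain *Myh8* was not called (0.08, edgeR adjusted p = 0.891).

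*Myhas*, an antisense gene that overlaps *Myh1* in GENCODE M21, was chosen after its values were seen. It had 27.9, 28.1, 32.3 and 21.2 CPM in control replicates 1 to 4. In NOX4-deficient replicates 1 to 4 it had 56.1, 47.3, 53.3 and 53.8 CPM, so that the groups did not overlap. The change was 0.94 ± 0.13 (SE) in log2 units with an adjusted p of 0.00132 in edgeR, and the call held in all 16 alternatives. The libraries were unstranded, so that reads of *Myhas* and *Myh1* cannot be told apart where they overlap, and the part of *Myh1* reads in the *Myhas* values was not tested.

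Of the 20 genes in a list of the IIb program, which holds fast contractile proteins and glycolytic enzymes, all were tested, 1 was called higher and none lower. The shares over all rows tested were 2.68% called higher and 3.48% lower. The median log2 fold change of the list was 0.20, against 0.01 over all rows tested, and its values ran from -0.02 to 0.51. The median was 0.12 without control replicate 4 or NOX4-deficient replicate 3 and 0.13 without control replicate 2. The called gene was *Gpd1*, the glycerol-3-phosphate dehydrogenase of the cytosol, with means of 416 ± 65.4 CPM (SD) in control mice against 588 ± 67.8 CPM in NOX4-deficient mice. Its log2 fold change of 0.50 (edgeR adjusted p = 0.0354) lay at the threshold, and the call was lost in 8 of 16 alternatives, among them those without control replicate 1, 2 or 4 or NOX4-deficient replicate 1 or 3 (0.51, 0.50, 0.41, 0.52 and 0.43). *Ampd1*, the muscle AMP deaminase, had groups that did not overlap (0.38, edgeR adjusted p = 0.0551). Examples of sarcomeric genes in the list that were not called are 0.18 for *Actn3*, 0.04 for *Mybpc2*, 0.15 for *Tnnt3*, 0.06 for *Tnni2* and 0.26 for *Mylpf*. The largest change in the list, 0.51 for *Casq1*, was not called either (edgeR adjusted p = 0.0897). In the list 19 changes were positive and 1 was negative.

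In the list of the slow and oxidative program, 13 genes were tested, of which 1 was called higher and none lower. Among all rows tested, 2.68% were called higher and 3.48% lower. The median of the list was 0.61 in log2 units, against 0.01 over all rows tested. It was 0.29 without NOX4-deficient replicate 4 and 0.83 without control replicate 2. The called gene was *Casq2*, the calsequestrin of heart and slow muscle, with means of 13.8 ± 3.66 CPM and 27.9 ± 8.93 CPM (SD) and a change of 1.02 ± 0.23 (SE) in log2 units (adjusted p = 0.022 in edgeR). This call was lost in 3 of 16 alternatives, among them those without control replicate 3 or 4 (0.94 and 0.90). NOX4-deficient replicate 4 held the most signal over the list, 5617 CPM in sum, against 2521 to 3662 CPM in the other 3 NOX4-deficient libraries and 2410 to 4500 CPM in control libraries. The part of the gastrocnemius that was sampled, which sets the share of slow fibers, was not given in the sources used here.

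**Figure D4:**
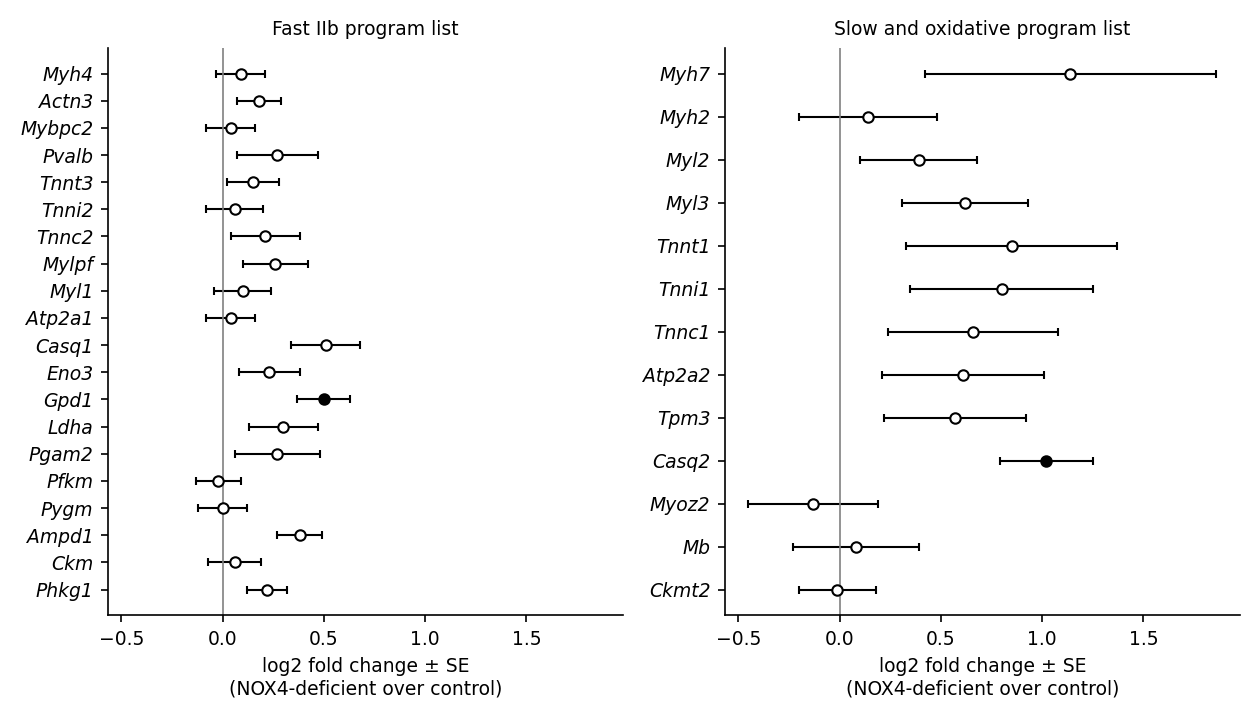
Log2 fold changes (NOX4-deficient over control, horizontal axes) with standard errors for the fast IIb program list (left, 20 genes) and the slow and oxidative program list (right, 13 genes). Filled circles are genes that were called, *Gpd1* and *Casq2*; *Myh4* stands at 0.09, and the values of the slow list spread more widely (-0.13 to 1.14) than those of the IIb list (-0.02 to 0.51).

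Other regulators of fiber type were read beside the large MAF genes. In a list of 12 regulators that act in fast fibers or in the balance of fast and slow fibers, 1 was called higher and 1 lower. For all rows tested these shares were 2.68% and 3.48%. *Bhlhe41*, a basic helix-loop-helix repressor that is also part of the circadian clock, rose by 1.29 in log2 units, from a mean of 30.9 ± 7.44 CPM (SD) to 75.3 ± 13.8 CPM (adjusted p = 0.00165 in edgeR). *Vgll2*, a cofactor of TEAD factors that is known to support slow fiber genes, was lower (-0.90, edgeR adjusted p = 0.0222), with groups that overlapped in control replicate 4 and a call that was lost in 6 of 16 alternatives, among them those without control replicate 1 or 2 (-0.83 and -0.78) or NOX4-deficient replicate 1, 2 or 3 (-0.87, -0.78 and -0.89). *Tbx15*, a T-box factor, stood at 0.22 and *Sox6*, a repressor of slow genes, at 0.03, and neither was called.

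Among 17 regulators linked to slow fibers or calcium signaling, 1 was called higher and 2 lower, beside 2.68% and 3.48% of all rows tested. *Nfatc2*, a calcineurin-responsive factor, rose by 0.96 in log2 units, from a mean of 8.46 ± 0.666 CPM (SD) to 16.4 ± 4.28 CPM (adjusted p = 0.00733 in edgeR). *Hdac4*, a class IIa histone deacetylase that represses MEF2, was lower (-1.01, edgeR adjusted p = 0.00203), as was *Ppard*, a lipid-sensing nuclear receptor that promotes oxidative metabolism (-0.58, edgeR adjusted p = 0.0153). The groups did not overlap in these 3 genes. In the whole list this was so for 2 higher and 3 lower genes, beside 16.2% of all rows tested.

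Of 12 genes for cofactors and kinases that act on large MAF proteins, 11 were tested and none was called, beside 6.16% of all rows tested. The median change was 0.00 in log2 units. *Gsk3b*, a kinase that phosphorylates large MAF proteins, stood at -0.42 in log2 units (edgeR adjusted p = 0.121) and *Crebbp*, a coactivator, -0.41 (edgeR adjusted p = 0.0407, with a change smaller than the threshold). Of 16 genes that large MAF proteins are known to activate in lens, islets and immune cells, 9 had no count in any library, among them *Ins1* and *Ins2*, and 3 were tested. *Cryab*, a crystallin that muscle also expresses as a small heat shock protein, had 423 to 547 CPM in control and 257 to 456 CPM in NOX4-deficient libraries (-0.41, edgeR adjusted p = 0.145).

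The genes whose pattern over the 8 libraries was most like that of *Mafa* were found by the root mean square difference of their centered log2 CPM, in log2 units. They were *A330094K24Rik* (0.185), *Gm11266* (0.205), *Gm12199* (0.211), *Mrtfa* (0.219) and *Sh3rf2* (0.229). *Mrtfa*, a coactivator of serum response factor, had 8.08 to 11.1 CPM in control and 25.4 to 33.2 CPM in NOX4-deficient libraries. *Sh3rf2*, a RING domain protein, averaged 14.1 ± 1.75 CPM (SD) in control mice against 39.5 ± 3.53 CPM in NOX4-deficient mice. The measure selects genes with the same difference between genotypes as *Mafa*, so these levels are a description. Nearest to *Maf* were *Trib2* (0.0691), *Riox1* (0.0884), *Hoxc4* (0.0893), *Znf235* (0.0966) and *Hexim1* (0.0972), which like *Maf* differed little between the groups.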

How the data were processed

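Gastrocnemius RNA was purified on columns, selected for poly(A) and sequenced as unstranded paired-end libraries. The authors processed the reads with the nf-core/rnaseq 3.10.1 pipeline and deposited raw counts per gene, 1 column per mouse. The submitters' processing notes name STAR and GRCm39, whereas the annotation and counting settings are not given in the sources used here. Each of the 8 columns was tied to its mouse by the library name in the labels. That replicates are separate mice is taken from the study's methods.

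Differences were fitted to the counts as deposited with edgeR 4.0.16 in R 4.3.3 (TMM, filterByExpr, estimateDisp, robust glmQLFit and glmQLFTest with genotype as the only term), with Benjamini-Hochberg adjustment over 12725 rows. Calls needed an adjusted p below 0.05 together with a log2 change beyond 0.5 in either direction, thresholds taken from the study's methods. Standard errors and 95% intervals come from the F statistic and its degrees of freedom. The fit was tested on simulated data. The members, gene lists and tests were chosen with earlier results of these data known. Named genes were the MAF and myosin genes of the lists, the called genes of each list and the 5 nearest patterns per member; other genes named are examples chosen after their values were seen. Transcript lengths and overlaps come from GENCODE M21 (GRCm38), a build other than that of the counts, and promoter windows from RefSeq (GRCm38.p6), which held 1 for *Myh4*. The alternatives were other scalings, filters and thresholds, a fit that was not robust, DESeq2 1.42.0, pydeseq2 0.5.4, the replicate number as a block and each library left out in turn. Counts of 4 mice per group limit what small differences can be seen. Some genes covered by this rule are not reported here.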

Additional observations from a re-analysis of the deposited data

Results flagged for a closer look

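Among the named genes, marker sums and myosin shares, 80 groups of 4 libraries were screened with Dixon's ratio, the gap between an extreme library and its neighbor over the group's whole range, at the 95% critical value. This picked out 4 groups, and about 4 would be picked out by chance (1 in 20). Neither *Mafa* nor *Maf* was among them. Control replicate 4 had the lowest *Gm12199* of the controls (0.519 CPM, ratio 0.918). Control replicate 3 had the highest sum of muscle fiber markers (96091 CPM, ratio 0.898), and control replicate 1 that of adipocyte markers (297 CPM, ratio 0.862). Control replicate 2 had the highest share of *Myh7* among the adult myosin heavy chain counts (0.152%, ratio 0.883).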

How the results depend on the processing

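*Mafa*, *Maf*, *Myh4* and the *Myh4* share kept their direction, and the tested ones their side of the threshold, under every alternative run. The number of rows called, 784, was 252 at an adjusted p under 0.01 and ranged from 499 (without control replicate 4) to 712 with each library left out. It was 999 with DESeq2, 1009 with pydeseq2 and 986 without a minimum fold change. In the IIb list the 1 gene called higher became 0 without the filter on low counts, and 0 to 2 with a library left out (2 without control replicate 3). In the slow list the count of 1 ranged from 0 (without control replicate 3 or 4) to 2 (without control replicate 2). *Myh2* ranged from -0.23 (without NOX4-deficient replicate 4) to 0.41 and *Myh8* from -0.11 (without NOX4-deficient replicate 2, and -0.05 without replicate 4) to 0.29 with a library left out. The causes were not tested. With the replicate number as a block, 933 rows were called, 2 genes of the IIb list and 0 of the slow list were called higher, and the log2 fold changes of *Mafa*, *Maf* and *Myh4* kept their direction. Deviations of libraries with the same number correlated from 0.041 to 0.223, and only replicate 1 matched its own number best. With 4 libraries per group this check cannot settle whether the numbers pair the mice. A library left out leaves 3 mice against 4, and low counts such as those of *Myh3* and *Maff* limit precision.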

Other observations

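*Tnnc2*, the gene of fast troponin C, had 6.74 to 11.7 CPM over the 8 libraries, whereas its partners in the troponin complex *Tnnt3* and *Tnni2* had 22941 to 32546 CPM and 7064 to 10897 CPM. In GENCODE M21 *Tnnc2* overlaps *Ube2c* on the opposite strand. The part of this overlap in the low count was not tested. *Ppargc1a*, which encodes a coactivator of oxidative metabolism, had 54.1 to 161 CPM in control and 27.6 to 61.3 CPM in NOX4-deficient libraries (-1.39, edgeR adjusted p = 0.0855).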
